A study of Homo sapiens with 197 samples.

Results

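The G protein-coupled receptor kinase lanes of this screen are the 4 lanes whose kinase label begins with ADRBK or GRK, namely ADRBK1, ADRBK2, GRK5 and GRK6. They were picked by their label, with earlier results of these data known. They make up 2.19% of the kinase lanes used and 2.03% of all lanes of the series, where each is 1 lane beside 196 others. The question asked of them was whether a receptor kinase held at the membrane turns on tissue-restricted genes, or alters the abundant genes that were measured beside them, relative to the lanes of other kinases, which are the remaining 97.8% of the kinase lanes used and give 10382 values over 58 rows. In each of the 4 lanes, IMR90 cells, a line of non-transformed human lung fibroblasts, were infected in a well of a 6-well plate with a retrovirus encoding one kinase made active by a myristoylation signal, and total RNA was collected 4 days later. The other kinase lanes and the lanes left out (HK1 and the second lanes of PIK3CG and PTK2, 3 lanes) carry the same kind of construct. The remaining lanes hold 3 of IMR90 controls, labelled as carrying the empty vector, 2 of SW39, a transformed derivative of IMR90, and 6 of a human reference RNA mixed from cancer cell lines. Each receptor kinase has 1 lane, so there is no replicate of any of them, and every error given here is the spread between lanes of different kinases. A lane is the RNA of a whole well, in which fewer cells expressing a gene cannot be told apart from less RNA per cell.

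G protein-coupled receptor kinases phosphorylate receptors that are occupied by their agonist. The phosphorylated receptor is bound by an arrestin, is uncoupled from its G protein and is often internalized, which is the basis of desensitization to adrenaline and many other ligands. ADRBK1 and ADRBK2, the β-adrenergic receptor kinases now named GRK2 and GRK3, carry a pleckstrin homology domain that binds the βγ subunits of G proteins and are brought to the membrane when a receptor is activated. GRK5 and GRK6 belong to the GRK4 subfamily, lack that domain and are attached to the membrane without it. A myristoylation signal places all 4 at the membrane.

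Each lane was counted with 75 Nanostring probes, and 58 rows were compared: 57 endogenous rows, of which 42 are tissue-restricted genes, and the housekeeping gene B2M. Counts were scaled by the 6 positive controls and then by PGK1, TBP and TUBB2A, and are called normalized counts below. The total count was 240476 in the ADRBK1 lane, 153532 in ADRBK2, 151596 in GRK5 and 197041 in GRK6, within the range of 29629 to 340763 of the other kinase lanes (median 159350). The scaling factors of the same lanes were 0.797, 1.05, 1.35 and 0.920, against a median of 1.01 (range 0.599 to 6.07). Background in a lane was set at the mean plus 2 SD of its 8 negative controls, which gave 17.1, 14.4, 16.1 and 21.4 counts in ADRBK1, ADRBK2, GRK5 and GRK6 (median 20.8 in the other kinase lanes). The tissue-restricted probes that read out a transformed or cancer sample were working: ATAD2 stood at 2637 to 2989 normalized counts in SW39 and 1450 to 1663 in the reference RNA, and ADAM12 at 91.7 to 118.4 and 130 to 174.1.

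No probe measures a receptor kinase itself, and the row named for the tag did not separate the kinase lanes from the controls. The MyrFlag row gave 664 normalized counts in ADRBK1, 665 in ADRBK2, 799 in GRK5 and 572 in GRK6, against 627, 665 and 714 in the 3 IMR90 controls and 2526 to 2841 in SW39. The row named ZBTB33 did separate them. It gave 43680, 24607, 39431 and 29249 normalized counts in ADRBK1, ADRBK2, GRK5 and GRK6, a median of 22318 (146.8 to 112422) in the other kinase lanes, and 8.75, 13.4 and 18.3 in the controls. All 4 lanes lay above the median of the other lanes (ranks 25, 80, 34 and 62 from the highest). In SW39 the ZBTB33 row gave 6.23 to 6.86. The study reports that all the kinases gave signal for the tag, while uninfected IMR90 and SW39 gave none. The IMR90 controls here are labelled as empty vector, a case that this statement does not cover. Across kinase lanes and SW39, the row named ZBTB33 had the reported pattern and the MyrFlag row did not. The names of the rows listed after the tissue-restricted genes may therefore be shifted against their counts in the deposited files. Without probe sequences the probe behind each name could not be settled. Each of those values is given under the name in the file and may belong to another probe. In one fit of all kinase lanes with the first lanes of the 2 IMR90 controls, ZBTB33 was the only row with an edgeR adjusted p under 0.05 in the receptor kinase lanes (1 of 58 rows, 1.72%, log2 difference 11.29 ± 2.01 SE, adjusted p = 4.4e-06) and the only one in the other kinase lanes (1.72%, 10.83 ± 1.95 SE, adjusted p = 5.5e-06). The title of the remaining control lane repeats the name of one of the 2 controls, so the 3 lanes may be 2 samples, and tests that count 3 may give p-values that are too small. With the spread taken from all 3 control lanes and the 4 receptor kinase lanes alone, 13 rows passed for the 4 lanes (22.4%), 9 for the ADRBK pair (15.5%) and 9 for the GRK pair (15.5%), and without the repeat lane 9 (15.5%), 10 (17.2%) and 5 (8.62%).

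Few values of the 4 lanes stood apart from the other kinase lanes, and apart from ALAS1 no tissue-restricted gene stood more than 2.5 SD above its mean in them. The Z-score of a row in a lane is its log2(normalized count + 1) minus the mean of the other kinase lanes, divided by their SD. Of the 232 pairs of row and lane, 1 lay more than 2.5 SD above the mean (0.431%) and 1 more than 2.5 SD below it (0.431%), and 0 lay beyond 3.5. In the other kinase lanes the same shares were 0.395% above (41 of 10382 pairs) and 0.857% below (89 of 10382), so the 4 lanes held such pairs about as often as the background. At least 1 row beyond 2.5 was found in 69 of the other kinase lanes (38.5%), and in 2 of the 4 receptor kinase lanes. The pair above was ALAS1 in the GRK5 lane and the pair below was ATAD2 in the GRK6 lane, both genes that IMR90 cells already express. No row of the ADRBK1 or ADRBK2 lane lay beyond 2.

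**Figure D1:**
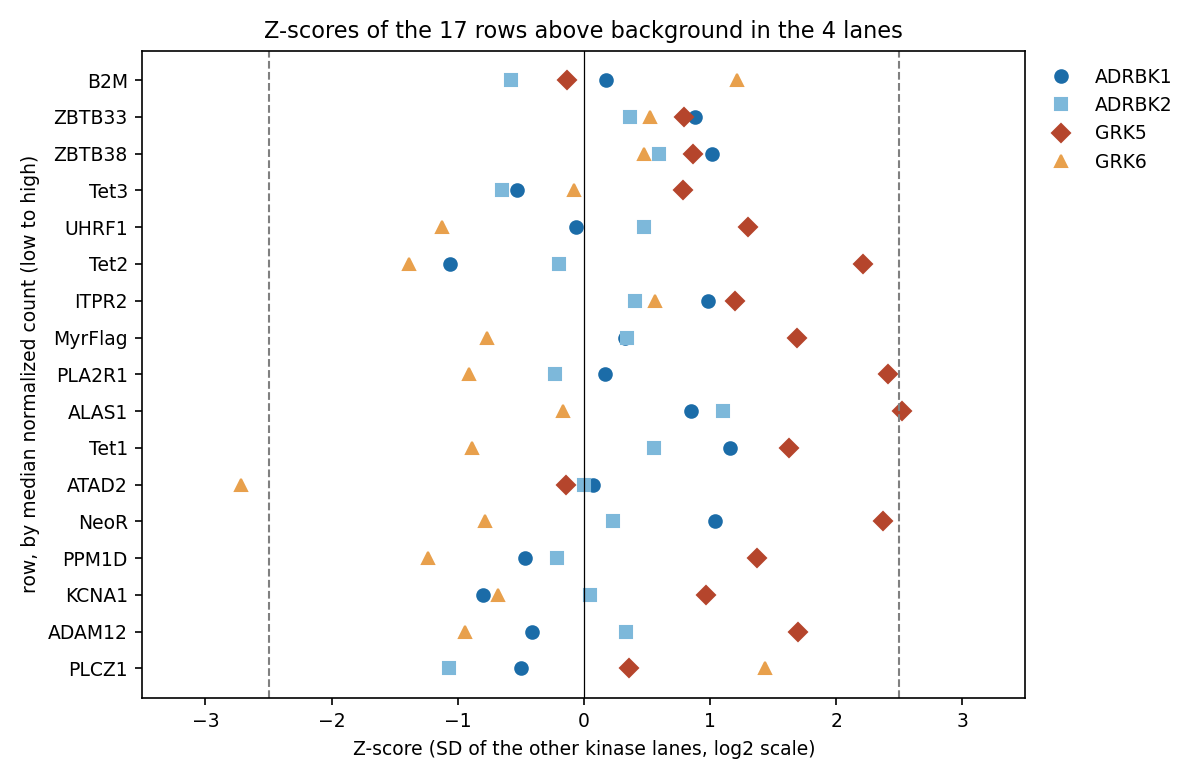
Z-scores on the x axis (in SD of the other kinase lanes) for the 17 rows whose median count exceeds the negative-control level, 1 row per line and 1 symbol per lane, with dashed lines 2.5 SD to either side of the mean. GRK5 is the highest of the 4 lanes in 12 of the 17 rows, and the points past a dashed line are ALAS1 in GRK5 (2.52) and ATAD2 in GRK6 (-2.72).

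ALAS1, the first and rate-limiting enzyme of heme synthesis, was the row with the smallest p of the family comparison. Its counts of 689, 544, 525 and 511 in ADRBK1, ADRBK2, GRK5 and GRK6 became 549, 571, 710 and 470 normalized counts. ADRBK1, ADRBK2 and GRK5 thus lay above the median of 479 in the other kinase lanes (326 to 756), and GRK6 lay just below it. GRK5 ranked 3 from the highest of all kinase lanes, with a Z-score of 2.52, at 1.48 times the median. ADRBK2 ranked 29, ADRBK1 35 and GRK6 98. The 95% Poisson interval of the GRK5 lane, 650 to 773 normalized counts, covers counting error only. Over the 4 lanes ALAS1 was higher by 0.24 on the log2 scale (SE 0.11, 95% interval 0.02 to 0.45, edgeR p = 0.033, adjusted p = 0.67), and the exact permutation test over all 45212895 choices of 4 lanes gave p = 0.035 (adjusted p = 0.55, two-sided). The difference did not pass the test, and it was 0.07 without the GRK5 lane, 0.12 and 0.072 with blocks of 12 sample numbers as a term, 0.11 with TMM factors and 0.039 with DESeq2 size factors.

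The height of ALAS1 in GRK5 moved with the housekeeping genes used for scaling. After positive-control scaling, PGK1 stood at 7634 in GRK5 (rank 12 from the lowest, median 9339 in the other lanes), TUBB2A at 3470 (rank 21 from the lowest, median 4235) and TBP at 427 (rank 82 from the highest, median 418). The first, a glycolytic enzyme, and the second, a β-tubulin, were thus near the bottom of their range, while TBP, the TATA-binding protein, was in its middle. With the positive controls alone the Z-score of ALAS1 was 1.29, and with PGK1, TUBB2A or TBP as the only housekeeping gene it was 2.56, 2.18 and 2.02. The 12 other kinase lanes nearest in sample number had a median of 630 normalized counts of ALAS1, and all 12 lay below the GRK5 lane. Set against the mean of those 12 lanes, with the SD of all other kinase lanes kept, the Z-score was 1.02. That difference was 0.225 on the log2 scale, and the SD of the 12 lanes themselves was 0.178. The part of the housekeeping genes and of position in the sample list in this value was not tested further.

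GRK5 was high across the abundant rows, not in ALAS1 alone. Of the 14 rows with a median count above 100, it lay above the mean of the other kinase lanes in 12, with a median Z-score of 1.34, rank 4 from the highest. Beside ALAS1, 4 rows of this lane passed 2, those named PLA2R1 (727 normalized counts, Z-score 2.41), NeoR (283, 2.37), PuroR (20.3, 2.33) and Tet2 (898, 2.21). The PLA2R1 row in GRK5 had the highest value of all kinase lanes, where ADRBK1, ADRBK2 and GRK6 gave 524, 494 and 447. The PuroR value rests on 15 counts, below the background of 16.1 in that lane. With the positive controls alone, the Z-scores of PLA2R1, NeoR and Tet2 in GRK5 were 1.07, 1.37 and 0.78. The 12 lanes nearest to GRK5 in sample number were high in these rows too. Their medians were 606, 241 and 822, against 519, 180 and 694 in all other kinase lanes. GRK5 lay above 12, 10 and 11 of these 12 lanes. The part of position in the sample list was not tested. In the same 14 rows ADRBK1 had a median Z-score of 0.25 (10 rows above the mean), ADRBK2 0.29 (9 rows) and GRK6 -0.78 (4 rows, rank 17 from the lowest).

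**Figure D2:**
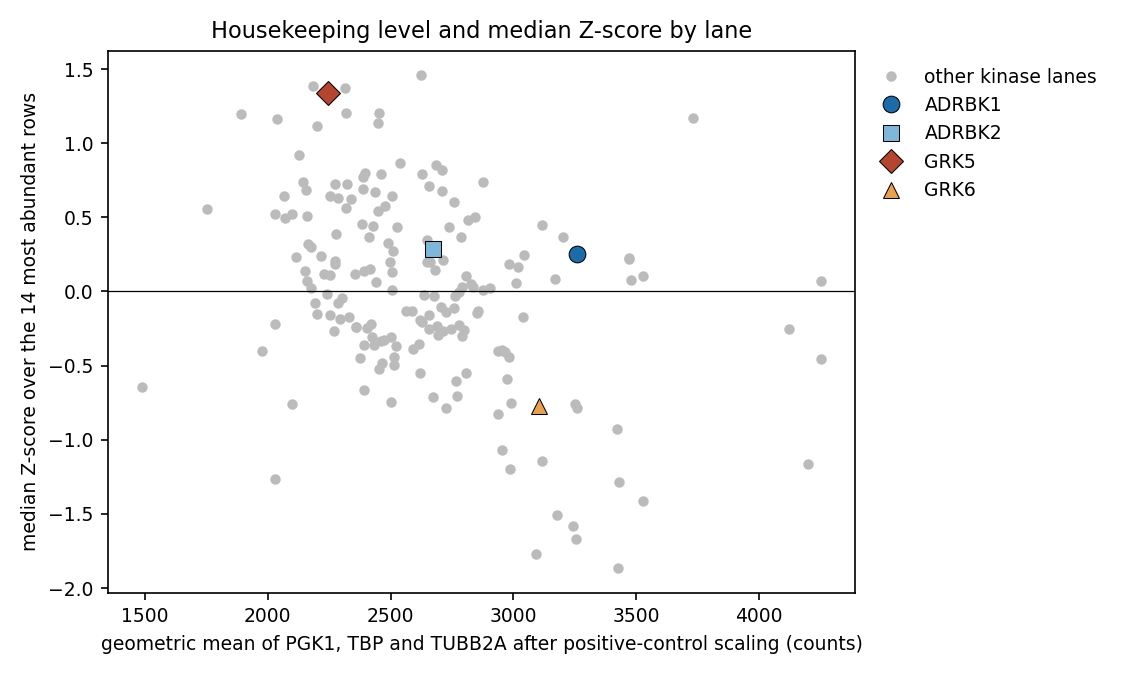
Each point is 1 kinase lane. The x axis is the geometric mean of the 3 housekeeping genes used for scaling, in counts after positive-control scaling, the y axis the median Z-score over the 14 most abundant rows after full scaling. GRK5 (2246, 1.34) and GRK6 (3104, -0.78) lie on opposite sides of ADRBK2 (2673, 0.29), and ADRBK1 (3258, 0.25) has the highest housekeeping level of the 4.

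ATAD2, an ATPase with a bromodomain that is linked to E2F and proliferation, was low in the GRK6 lane alone. Its normalized counts were 177.8 in ADRBK1, 175.3 in ADRBK2, 170.4 in GRK5 and 102.2 in GRK6, where the 95% Poisson interval was 84 to 123.02 normalized counts. The first 3 lanes lay close to the median of 181.2 in the other kinase lanes, and GRK6 lay at 0.564 times that median, the third lowest of all kinase lanes (lowest 89.1). The Z-score was -2.72, and -1.67 with the positive controls alone. With TBP, TUBB2A or PGK1 as the only housekeeping gene it was -2.82, -2.42 and -2.40. After positive-control scaling, these 3 genes all lay above the median of the other lanes in GRK6. TBP stood at 527 (median 418), TUBB2A at 4612 (median 4235) and PGK1 at 12309 (median 9339). Exchanging them keeps any rise that they share, and their part in this value was not tested. All 12 lanes nearest to GRK6 in sample number lay above it (median 160). The 3 IMR90 controls gave 161.3, 184.8 and 229. The GRK5 and GRK6 pair was lower than the other kinase lanes by 0.41 on the log2 scale as fitted (log2 difference -0.41, SE 0.21, 95% interval -0.82 to 0.01, edgeR p = 0.054, adjusted p = 0.76; exact permutation p = 0.047, adjusted 0.68), a value that was -0.07 without the GRK6 lane, -0.81 without the GRK5 lane and -0.72 with DESeq2 size factors.

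**Figure D3:**
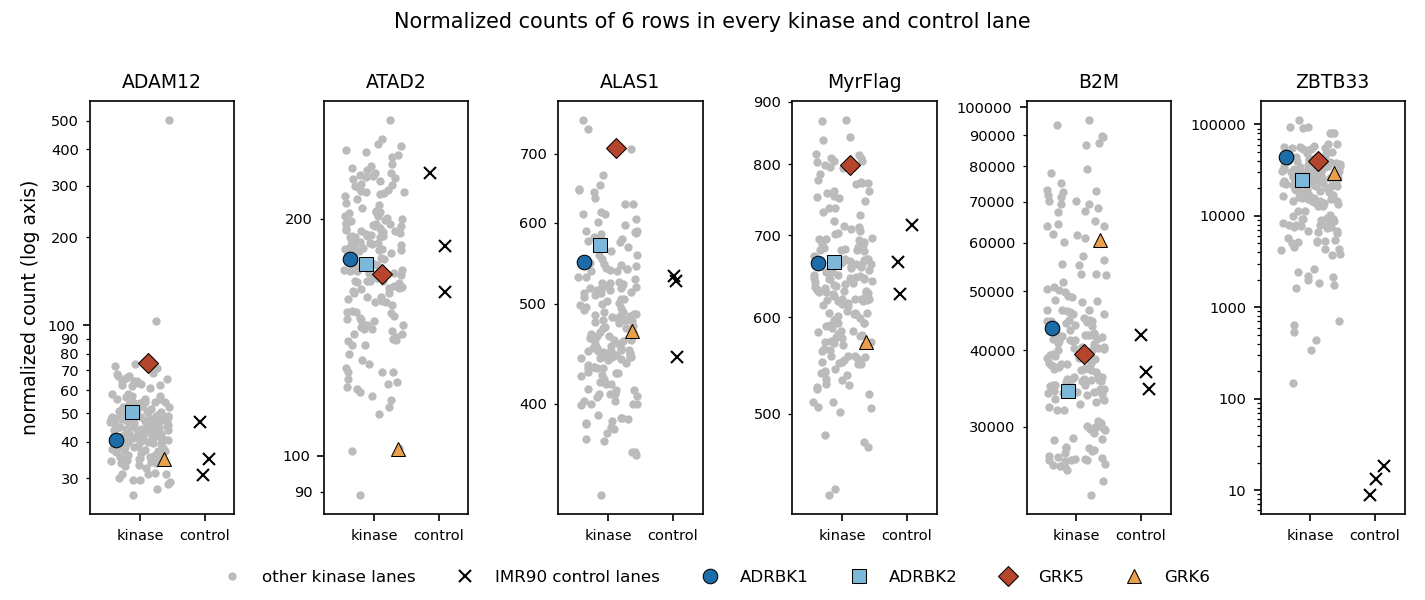
Normalized counts on a log axis for 6 rows, with each kinase lane as a grey point, the 4 receptor kinase lanes as coloured symbols and the 3 IMR90 controls as crosses; horizontal offsets only spread the points. The receptor kinase lanes lie inside the range of the other kinase lanes in all 6 rows, with GRK6 near the bottom for ATAD2 (102.2) and GRK5 near the top for ALAS1 (710), and the controls lie below every kinase lane for ZBTB33.

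ADAM12, a membrane-anchored metalloprotease and the tissue-restricted gene for which one kinase lane stood far out, was at 1.66 times the median of the other kinase lanes in GRK5 and at 0.779 to 1.12 times it in ADRBK1, ADRBK2 and GRK6. Its counts of 51, 48, 55 and 38 became 40.7, 50.4, 74.4 and 34.97 normalized counts in ADRBK1, ADRBK2, GRK5 and GRK6. GRK5 was the highest of the 4 and ranked 3 from the highest with a Z-score of 1.70, while GRK6 ranked 21 from the lowest. The Z-score of GRK5 ranged from 1.06 to 2.52 over the settings tried, and passed 2.5 in 1 of them, where the median and scaled median absolute deviation replaced the mean and SD. The other kinase lanes ran from 26.2 to 504 with a median of 44.9, the top value being MAP3K7, and the controls gave 46.8, 35.01 and 30.8. The 95% Poisson intervals, brought to normalized counts, were 56 to 96.8 in GRK5 and 24.7 to 48 in GRK6 and did not overlap. They cover counting error only and leave out the error of the scaling. Over the 4 lanes the log2 difference from other kinase lanes was 0.01 (95% interval -0.52 to 0.54, edgeR adjusted p = 0.99).

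B2M, the invariant light chain of MHC class I molecules, was not used in the scaling and was compared as a gene. The 4 lanes gave 43510, 34252, 39441 and 60610 normalized counts in ADRBK1, ADRBK2, GRK5 and GRK6. The first 3 lay around the median of 39313 in the other kinase lanes (23138 to 95392). GRK6 stood at 1.54 times that median, rank 29 from the highest, with a Z-score of 1.21 that ranged from 1.05 to 1.72 over the settings tried. Over the 4 lanes the log2 difference was 0.02 (95% interval -0.45 to 0.49, edgeR adjusted p = 0.99).

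Most of the other tissue-restricted genes were at or near background. Beside PLCZ1, given below, FMR1NB and SPATA22 passed it in all 4 lanes. FMR1NB had 36, 20, 23 and 25 counts in ADRBK1, ADRBK2, GRK5 and GRK6, and SPATA22 had 34, 17, 18 and 24. They passed it in 86 and 61 of the other kinase lanes. In the 42 rows, 15 passed the background of their own lane in ADRBK1, 12 in ADRBK2, 10 in GRK5 and 9 in GRK6, against a median of 5 (3 to 23) in the other kinase lanes and 3, 3 and 5 in the IMR90 controls. The mean of 11.5 ± 2.65 (SD, n = 4) exceeded the mean of 6.78 ± 4.01 in the other kinase lanes (exact permutation p = 0.024, two-sided). That measure was picked with its values in view. The difference was smaller among neighbours and with one threshold for all. The 32 other kinase lanes within 6 sample numbers of the stretch that holds the 4 lanes had a median of 8 and a mean of 9.13 rows (exact permutation p = 0.31). With one threshold of 20.6 normalized counts in every lane, the 4 lanes had 10, 6, 11 and 9 rows (mean 9) against a mean of 6.88, with an exact permutation p = 0.23, or 0.59 within those neighbours. The lower negative-control levels of ADRBK1, ADRBK2 and GRK5 stand beside these counts, and their part in them was not tested beyond this.

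PLCZ1, the sperm phospholipase C that sets off calcium waves in the fertilized egg, was the only other tissue-restricted row above background in the median lane. It had 29, 18, 23 and 49 counts and 23.1, 18.9, 31.1 and 45.1 normalized counts in ADRBK1, ADRBK2, GRK5 and GRK6, against a median of 26.6 (10.8 to 73.7). GRK6 was its highest lane (rank 15, Z-score 1.43) and ADRBK2 its lowest (rank 23 from the lowest, -1.07). ADCY10, the soluble adenylyl cyclase of sperm that makes the second messenger of adrenergic signaling, was below background in all 4 lanes with 13, 11, 14 and 12 counts (10.4, 11.5, 18.9 and 11.04 normalized counts, median 12.1).

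By group, the lists showed no common shift. Among the 11 cancer/testis antigens, which include MAGEA3, PRAME and CTAG1B, 7 had a log2 difference above 0 over the 4 lanes (median 0.08), beside 37 of all 58 rows (median 0.08), and none passed the test. PRAME gave 8.0, 5.2, 13.5 and 3.7 normalized counts in ADRBK1, ADRBK2, GRK5 and GRK6 where the reference RNA gave 2108 to 3212. Of the 10 genes of germ-cell RNA and meiosis, such as DDX4 and DAZL, 6 were above 0 (median 0.12), and of the 7 of sperm structure and fertilization 2 were (median -0.02). The 4 enzymes had 3 above 0 (median 0.17). Among the 10 genes whose re-expression the methods tie to DNA methylation, 6 were above 0 (median 0.14), and among the 10 in the group without that tie 8 were (median 0.12). None of these lists held a row that passed.

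The rows named for chromatin and DNA methylation were read in all 4 lanes under the caution on names given above. The row named for UHRF1, which brings the maintenance methyltransferase to replicating DNA, had 781, 867, 1018 and 634 normalized counts in ADRBK1, ADRBK2, GRK5 and GRK6 (median 796). GRK5 was again the highest and GRK6 the lowest. The TET enzymes oxidize methylated cytosine. The Tet1 and Tet2 rows also had GRK5 highest and GRK6 lowest: Tet1 gave 426, 377, 468 and 281 (median 345), and Tet2 606, 672, 898 and 583 (median 694). Tet3 was tighter, with 1803, 1786, 2015 and 1873 (median 1898), and its lowest lane was ADRBK2. The row named for PPM1D, a phosphatase that ends p53 signaling, gave 130, 138.6, 208 and 106.8 (median 148.1). The row named for ZBTB38, a reader of methylated DNA, gave 28152, 17565, 23742 and 15464 (median 11922, range 82.2 to 58762), all above the median. Under that name the IMR90 controls gave 1591 to 7039, SW39 5066 to 6566 and the reference RNA 4.2 to 8.1. Whether this row measures ZBTB38 was not tested. The DNMT1 and ZBTB4 rows were near background, with 15.1 to 25.7 and 9.4 to 18.9 normalized counts. Of the 9 rows, 9 had a Z-score above 0 in GRK5, 6 in ADRBK2, 4 in ADRBK1 and 4 in GRK6. Among all 58 rows it was 42 in GRK5, 33 in ADRBK2, 37 in ADRBK1 and 29 in GRK6. The 9 rows include those named ZBTB33 and ZBTB38. Over the 4 lanes 6 of the 9 had a log2 difference above 0 (median 0.17), and none passed the test.

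Across all rows the 4 lanes were not separated from the other kinases. In edgeR's quasi-likelihood fit, adjusted by Benjamini-Hochberg over all rows, 0 of 58 rows (0%) had an adjusted p under 0.05 for the 4 lanes against the other kinase lanes, and 1 row, ALAS1, had an unadjusted p under 0.05. For ADRBK1 and ADRBK2 alone it was 0 of 58 (0%) and 0 at unadjusted p under 0.05. The smallest p belonged to C10ORF82 (9.6 and 16.8 normalized counts against a median of 6.6, log2 difference 0.81 ± 0.42 SE, edgeR p = 0.058, adjusted p = 0.93), TPTE (-0.99 ± 0.60) and DPEP3 (0.68 ± 0.41). For GRK5 and GRK6 it was 0 of 58 (0%) and 3 unadjusted. These were PuroR (20.3 and 11.04 against 6.6, 1.12 ± 0.43, edgeR p = 0.0098, adjusted p = 0.57), HORMAD1, a protein of the meiotic chromosome axis (25.7 and 21.2 against 13.6, 0.71 ± 0.32), and TKTL1, a transketolase-like enzyme (21.6 and 15.6 against 10.6, 0.73 ± 0.35). PuroR (15 and 12 counts) and TKTL1 (16 and 17) lay below background in both lanes, 16.1 in GRK5 and 21.4 in GRK6. HORMAD1 (19 and 23 counts) lay just above it. The differences of PuroR and TKTL1 changed sign with counts floored at background, as given below. DESeq2, limma and the exact permutation test also gave 0 rows in each. The intervals show what could have been seen: over the 4 lanes the 95% interval lay within 2-fold either way for 41 of 58 rows, and for 12 of the 14 abundant rows, the exceptions being ZBTB33 and ZBTB38.

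**Figure D4:**
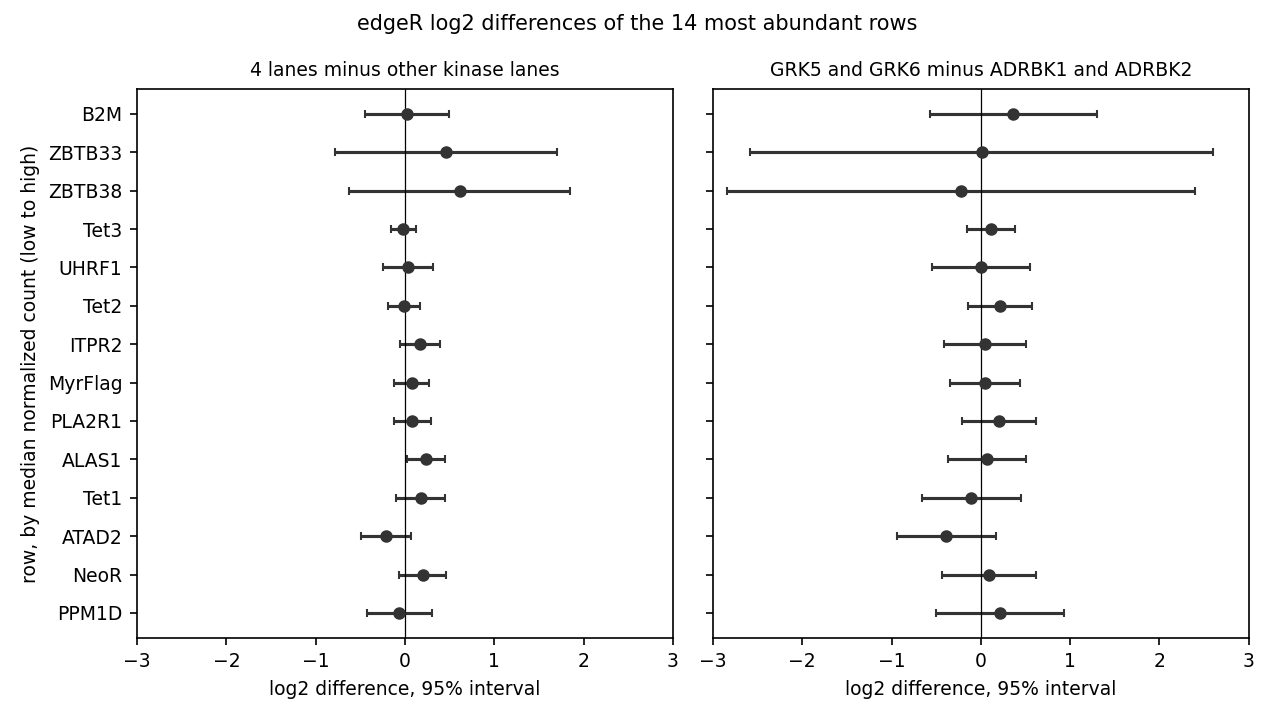
log2 differences with 95% intervals from edgeR for the 14 rows with a median count above 100, on the left for the 4 receptor kinase lanes minus the other kinase lanes and on the right for GRK5 and GRK6 minus ADRBK1 and ADRBK2. On the left the interval of ALAS1 alone lies clear of 0 (0.02 to 0.45, adjusted p = 0.67), on the right all 14 include 0, and ZBTB33 and ZBTB38 have the widest intervals.

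The pair with the βγ-binding domain was then set against GRK5 and GRK6. No row passed (0 of 58, 0%, and 0 at unadjusted p under 0.05 in edgeR), and with 2 lanes against 2 an exact permutation test cannot go below p = 0.333, so this comparison borrows its spread from the other kinase lanes. Both values of GRK5 and GRK6 lay above both values of ADRBK1 and ADRBK2 in 9 rows and below them in 7, together 16 of 58 (27.6%). Chance alone separates 2 lanes from 2 in this way with a probability of 0.333, so this share is no more than chance gives. Of the 16 rows, 3 had a median count above background: ATAD2, PLCZ1 and Tet3. The smallest p belonged to MAGEB6 (24.3 and 15.6 normalized counts in GRK5 and GRK6 against 12.8 and 7.3 in ADRBK1 and ADRBK2, log2 difference 0.93, 95% interval -0.07 to 1.94, adjusted p = 1.00 in edgeR), PLCZ1 (0.86, -0.11 to 1.83) and HORMAD1 (0.78, -0.14 to 1.71). For ATAD2 the difference was -0.39 (-0.94 to 0.17), or -0.05 without the GRK6 lane. The interval lay within 2-fold for 15 of 58 rows and 11 of the 14 abundant ones. In most low rows of this comparison it reached past 2-fold, so a difference of 2-fold or more could be missed there.

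The ADRBK lanes were more like each other than GRK5 was like GRK6. Over the 14 abundant rows the root mean square log2 difference was 0.32 between ADRBK1 and ADRBK2 and 0.63 between GRK5 and GRK6, where the median over all pairs of kinase lanes was 0.62. The 4 pairs across the subfamilies lay between, from 0.34 (ADRBK1 and GRK5) to 0.45 (ADRBK1 and GRK6). Without the widely varying rows ZBTB33 and ZBTB38, the difference was 0.15 for ADRBK1 and ADRBK2, with 3.21% of all pairs nearer, and 0.65 for GRK5 and GRK6, with 96.2% of all pairs nearer (median 0.34). On these 12 rows GRK5 was the farthest of all kinase lanes from GRK6, and ADRBK2 was number 3 among the lanes nearest to ADRBK1, after CERK. ADRBK1 and ADRBK2 stand 5 sample numbers apart and GRK5 and GRK6 24 apart. The housekeeping level was 3258, 2673, 2246 and 3104 counts in ADRBK1, ADRBK2, GRK5 and GRK6. Their median Z-scores over the abundant rows were 0.25, 0.29, 1.34 and -0.78. Position in the list, housekeeping level and subfamily cannot be told apart in these distances, which carry no test.

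**Figure D5:**
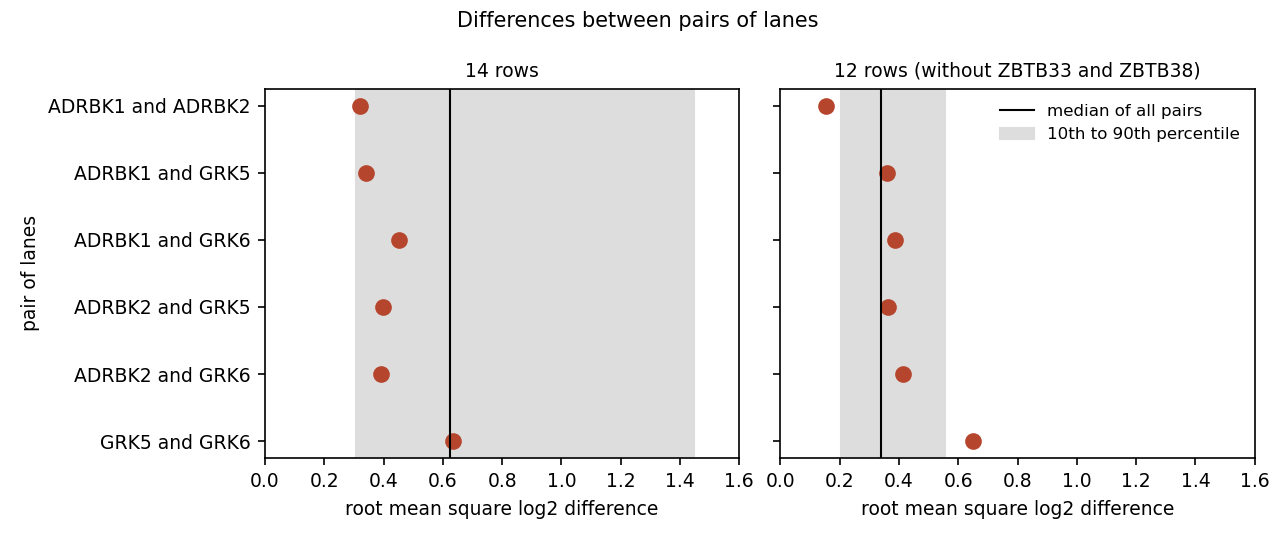
Root mean square log2 difference on the x axis for the 6 pairs of receptor kinase lanes, over the 14 most abundant rows on the left and the 12 left without ZBTB33 and ZBTB38 on the right. The line is the median and the band the 10th to 90th percentile over all pairs of kinase lanes. On the right ADRBK1 and ADRBK2 lie below the band (0.15) and GRK5 and GRK6 above it (0.65).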

How the data were processed

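The authors deposited raw Nanostring counts per probe for each lane, without normalization, and one table of the series whose signal was found here to be the count times 1 factor per lane in all 197 lanes. The counts were used, and the table's signal served as an alternative. Counts were scaled by the geometric mean of the 6 positive controls and then of PGK1, TBP and TUBB2A, after the study's methods. Lanes were grouped by title. Differences were fitted to the counts with edgeR 4.0.16 (R 4.3.3; robust quasi-likelihood, 1/scaling factor as library size, 3 groups, Benjamini-Hochberg over 58 rows), and limma 3.58.1 and DESeq2 1.42.0 were run beside it. The fit was tested on simulated data. Z-scores, distances and exact permutation tests (two-sided) used log2(normalized count + 1) in Python 3.11.15.

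Named rows were those with an adjusted p under 0.05, each lane's 3 highest and 3 lowest Z-scores above background, pairs beyond 2.5, and a set list of genes; the rows with the smallest p and the highest values of GRK5 were named after their values were seen. Members and lists were chosen with earlier results of these data known. RefSeq (GRCh38.p14) supplied current names only. Intervals of counts are exact Poisson (95%) and cover counting error only.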

Additional observations from a re-analysis of the deposited data

Results flagged for a closer look

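ATAD2 in the GRK6 lane was the lowest of the 4 receptor kinase lanes. The gap between its log2 value and the next, GRK5, was 0.923 of the whole range of the 4 lanes, above the limit for 4 samples (177.8, 175.3 and 170.4 normalized counts in ADRBK1, ADRBK2 and GRK5, and 102.2 in GRK6). It was 1 of 28 named rows examined in this way, where chance alone marks about 1 in 20 groups, so the count of such rows is no more than chance gives. Many of the rows, ATAD2 among them, were named for a value far from the mean, and the gap is given as a description.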

How the results depend on the processing

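Of the 44 less abundant rows, the 95% interval lay within 2-fold for 29 over the 4 lanes and 15 for the ADRBK pair. It did so in 13 for the GRK pair and 4 between the pairs. In the rest the interval reached past 2-fold, so a difference of 2-fold or more, as well as a smaller one, could be missed there. The 4 comparisons gave 0 rows under every normalization, filter, block of sample numbers, covariate, lane left out (0 to 0) and the exact permutation test where it could be run, except with IMR90 controls in place of the other kinases: 13 rows for the 4 lanes, 9 for the ADRBK pair and 9 for the GRK pair, or 9, 10 and 5 without the repeat control lane (added after seeing the data), where few lanes set the spread. With all kinase lanes in that fit, 1 row passed. The 2 pairs beyond 2.5 became 0 with the positive controls alone, the deposited table, the left-out lanes added, the 12 nearest lanes or TUBB2A alone, 1 with 4 housekeeping genes, PGK1 alone or TBP alone, 3 with a pseudocount of 10 (PuroR in GRK5 at 2.82 beside both), 4 with the median and scaled median absolute deviation (ADAM12 at 2.52 and NeoR at 2.65 in GRK5 beside both), and 26 against the controls; single housekeeping genes and the median were added after seeing the data.

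Directions near 0 turned between settings, and so did some larger ones in low rows. Over the 4 lanes ADAM12 was -0.14 with TMM, -0.12 with TMM without ZBTB33 and ZBTB38, -0.22 with DESeq2 size factors and -0.029 with the ZBTB33 covariate. B2M was -0.075, -0.044, -0.14 and -0.018 in the same settings, and -0.015 and -0.027 with blocks of 12 from 1 and from 12. With counts floored at background, PuroR went from 0.61 to -0.32 over the 4 lanes and from 1.12 to -0.067 for the GRK pair. TKTL1 in the GRK pair went from 0.73 to -0.073. In the ADRBK pair C10ORF82 went from 0.81 to -0.50 and DPEP3 from 0.68 to -0.57. Over the 4 lanes TKTL2 went from -0.72 against the other kinase lanes to 0.18 against the controls. ALAS1 in the GRK pair was -0.017 with DESeq2 size factors. Leaving out 1 lane at a time gave ranges of -0.30 to 0.25 for ADAM12, -0.15 to 0.16 for B2M and -0.00049 to 0.89 for PuroR over the 4 lanes, and -0.053 to 0.54 for ALAS1 in the GRK pair. The causes were not tested. No paired analysis was possible because each kinase has 1 lane and the labels pair no lanes across kinases.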
